A study of Homo sapiens with 6 samples.

Results

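The nuclear-encoded subunits of the respiratory chain and of ATP synthase were examined in Ishikawa cells, human cells established from an adenocarcinoma of the endometrium. They were chosen by gene symbol: NDUFA, NDUFB, NDUFC, NDUFS and NDUFV symbols, UQCR symbols, the COX4I and COX5 to COX8 families, ATP5F, ATP5M and ATP5P symbols, SDHA to SDHD and CYC1. Assembly factors named NDUFAF, pseudogenes and antisense genes were left out. The rule took 91 of the 60670 genes in the table, and it used no measured value. Of these, 37 encode subunits of complex I, 4 of complex II, 10 of complex III, 19 of complex IV and 18 of ATP synthase. NDUFA4 was counted with complex IV, of which its product is a subunit, together with its paralog NDUFA4L2. The remaining 3, ATP5MF-PTCD1, NDUFC2-KCTD14 and NDUFA6-DT, are read-through or divergent transcripts and were kept apart. RNA was sequenced from cells given the solvent DMSO (3 libraries) or 5 µM penfluridol (3 libraries). Penfluridol, a diphenylbutylpiperidine, is an antipsychotic with a long duration of action. Both groups are the same cell line in the same medium, and no genetic change is given for either. How long the cells were treated is not given in the sources. The libraries carry numbers 1 to 3 within each group, and whether they came from separate cultures is not stated, so the p-values rest on the spread between libraries, and that spread may be technical.

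Complexes I to IV of the inner mitochondrial membrane pass electrons from NADH and succinate to oxygen, and complexes I, III and IV pump protons as they do so. ATP synthase lets the protons flow back through its membrane-embedded c ring, and the rotation of the ring and its central stalk drives ATP formation in the F1 head while a peripheral stalk holds the head still. Most subunits are encoded in the nucleus and imported, and the mitochondrial genome encodes the rest, so the complexes are built from products of both genomes. Promoters of the nuclear genes are known for sites of NRF1, of ETS factors such as GABPA, of YY1 and of the estrogen-related receptors.

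Promoter windows from RefSeq (GRCh38.p14, from 250 bases before to 50 after the gene start) matched 72 of the 91 genes. Each window was searched on both strands for NRF1 (10 letters, whose matches are in capitals below), ETS (CCGGAAG), YY1 (AANATGGC), ERR (AAGGTCA) and the ATF4 element (TGATGNAA), with N any base. The motifs were counted independently of one another. An NRF1 match lay in 23.2% of 69 windows of subunit genes tested for expression, in 12.5% of the windows of 8983 tested genes and in 6.28% of all 27305 windows. A YY1 match lay in 33.3% of the subunit windows, 10.6% of the windows of tested genes and 6.82% of all windows. For ERR the shares were 13%, 2.53% and 3.97%, for ETS 29%, 20.3% and 10.7%, and for the ATF4 element 1.45%, 1.65% and 3.67%. These shares describe letters in the windows and not binding. The 250 bases before the start are shown for 3 subunit genes that were lower with penfluridol and carry an NRF1 match, and for COX7A2L, which was higher and carries a match to none of the 5 motifs. Each is read 5′ to 3′ on the strand of the gene, and capitals mark NRF1 and ERR matches. The windows are chr3:120596086-120596335 on the plus strand for NDUFB4, chr10:7787927-7788176 on the plus strand for ATP5F1C, chr14:103921530-103921779 on the minus strand for ATP5MPL (ATP5MJ in RefSeq) and chr2:42361218-42361467 on the minus strand for COX7A2L.
NDUFB4: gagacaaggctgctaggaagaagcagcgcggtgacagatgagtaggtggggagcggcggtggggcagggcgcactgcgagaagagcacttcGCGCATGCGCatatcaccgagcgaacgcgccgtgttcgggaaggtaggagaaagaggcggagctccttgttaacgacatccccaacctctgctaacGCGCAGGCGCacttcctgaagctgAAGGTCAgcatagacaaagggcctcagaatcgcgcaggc
ATP5F1C: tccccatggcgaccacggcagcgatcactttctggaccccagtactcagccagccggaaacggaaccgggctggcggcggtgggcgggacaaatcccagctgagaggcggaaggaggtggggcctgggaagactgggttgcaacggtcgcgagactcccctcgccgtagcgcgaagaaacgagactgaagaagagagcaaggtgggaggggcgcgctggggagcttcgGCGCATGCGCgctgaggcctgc
ATP5MPL: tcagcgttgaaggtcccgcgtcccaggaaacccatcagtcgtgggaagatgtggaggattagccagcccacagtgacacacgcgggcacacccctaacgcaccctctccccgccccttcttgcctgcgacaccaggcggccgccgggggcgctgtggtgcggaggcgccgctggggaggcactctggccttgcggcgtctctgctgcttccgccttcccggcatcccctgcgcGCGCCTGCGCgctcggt
COX7A2L: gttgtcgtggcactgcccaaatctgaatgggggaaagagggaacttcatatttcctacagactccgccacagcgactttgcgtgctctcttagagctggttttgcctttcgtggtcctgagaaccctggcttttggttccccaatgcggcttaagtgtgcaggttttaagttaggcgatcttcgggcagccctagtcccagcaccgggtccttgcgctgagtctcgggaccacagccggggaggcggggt
In NDUFB4 the marked NRF1 matches begin 159 and 63 bases before the start and the ERR match 39 bases before it. The marked NRF1 match begins 22 bases before the start in ATP5F1C and 17 bases before it in ATP5MPL. Matches that run past the start are not marked. Among the genes called lower, 10 had a window and 4 of these held an NRF1 match, the fourth being UQCR10. Of the same 10 windows, 3 held a YY1 match, 2 an ERR match, 1 an ETS match and 0 the ATF4 element. NDUFA7, the other gene called higher, held a YY1 match. SDHA, with 4 NRF1 matches, was not called. Whether any motif goes with the fold changes was not tested.

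Expression was given as TPM, the abundance of a gene's transcripts per length, scaled to a fixed total in each library. Read depth cannot be had from TPM, so no counting interval is given. A lower TPM cannot be told apart from a rise of other transcripts in the same library, and in bulk RNA fewer cells of a type and less RNA per cell cannot be told apart. Cell type was checked with marker lists, which cannot identify a cell line. All 6 epithelial markers, among them EPCAM, KRT8 and KRT18, were above 1 TPM in each library, and they summed to 4026 to 5088 TPM in DMSO and to 2749 to 3173 TPM with penfluridol. KRT8, KRT18 and KRT19 made most of these sums and were lower in each penfluridol library than in any DMSO library. CLDN4 was higher in each, at 180 to 219 TPM in DMSO against 238 to 251 TPM with penfluridol. EPCAM and CDH1 overlapped between groups. The list of Müllerian or endometrial epithelium, with PAX8 and EMX2, summed to 2991 to 3775 TPM in DMSO and to 1870 to 2023 TPM with penfluridol, nearly all of it WFDC2, and its member HOXB6 was at 0 to 0.07 TPM. The endothelial and immune lists summed to at most 0.88 and 1.1 TPM, with CD3E at 0, and of 5 stromal markers COL1A1 alone exceeded 1 TPM, while DCN and LUM were at 0. Pearson's correlation of log2(TPM + 1) across the tested genes was 0.960 between DMSO 1 and 2, 0.956 between DMSO 1 and 3 and 0.930 between DMSO 2 and 3. With the penfluridol libraries it was 0.895 to 0.917 for DMSO 2, 0.923 to 0.930 for DMSO 1 and 0.945 to 0.955 for DMSO 3, so DMSO 2 and DMSO 3 lay at opposite ends of their group.

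With penfluridol, 5 ATP synthase genes and 6 accessory genes of complex I fell, against 1 gene each in complexes III and IV and none in complex II, and the accessory gene NDUFA7 and the supercomplex factor gene COX7A2L rose. Most subunit genes of every complex did not pass the test. Genes averaging 1 TPM or more were tested (12201 genes, 84 of the subunit genes) with limma on log2(TPM + 1), and an adjusted p under 0.05 over all genes made a call. Of the 84 subunit genes, 13 fell and 2 rose. Over all tested genes 3.48% were called lower and 9.75% higher, against 15.5% and 2.38% of the subunit genes. The median log2 fold change was -0.24 for the subunit genes and -0.04 for all tested genes, and 63 subunit genes lay below 0 and 21 above. All 3 penfluridol libraries lay below all 3 DMSO libraries for 29 subunit genes (13.6% of all tested genes) and above them for 4 (23.3% of all tested genes). Those 4 were NDUFA7, COX7A2L, SDHA and NDUFA6-DT, a divergent transcript not listed as protein-coding. The 84 genes, called subunit genes here, include the 3 loci that were kept apart. The subunit genes were abundant, with a median of 307 TPM against 8.19 TPM for all tested genes, and their median standard error (SE) of the log2 fold change was 0.15 against 0.24. The remaining 7 genes, ATP5MGL, UQCRHL, COX4I2, COX6A2, COX6B2, COX7A1 and COX8C, were below the filter.

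The counts rested on which libraries entered. Without DMSO 3, 32 subunit genes were called lower and 6 higher, among them all 13 and both of the calls above, where 19.4% and 14.1% of all tested genes were called lower and higher. Without DMSO 1, penfluridol 1 or penfluridol 2 no subunit gene was called by limma, with 21 to 23 at an unadjusted p under 0.05. Calls over all tested genes were also fewer there, at 0.495%, 0.657% and 0.342% lower and 2.75%, 3.66% and 1.74% higher. Without DMSO 2 the calls were 2 lower and 1 higher (1.58% and 5.49% of all tested genes), and without penfluridol 3 they were 5 and 1 (1.74% and 5.25%). After removal of the trend that each library showed with GC content and length of transcripts, 7 were called lower and 1 higher (8.97% and 10.2% of all tested genes), of which 4 and 1 were among the calls above. The share called lower was then 8.33% of the subunit genes, near that of all tested genes. With a filter of 5 TPM or more in 3 or more libraries the calls were 16 lower and 2 higher (6.09% and 17.5% of all tested genes), and with median-of-ratios scaling 15 and 0 (5.89% and 8.17%). None of the 15 calls held in all of 13 alternative analyses, and the range of adjusted p over these is given with each gene.

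**Figure D1:**
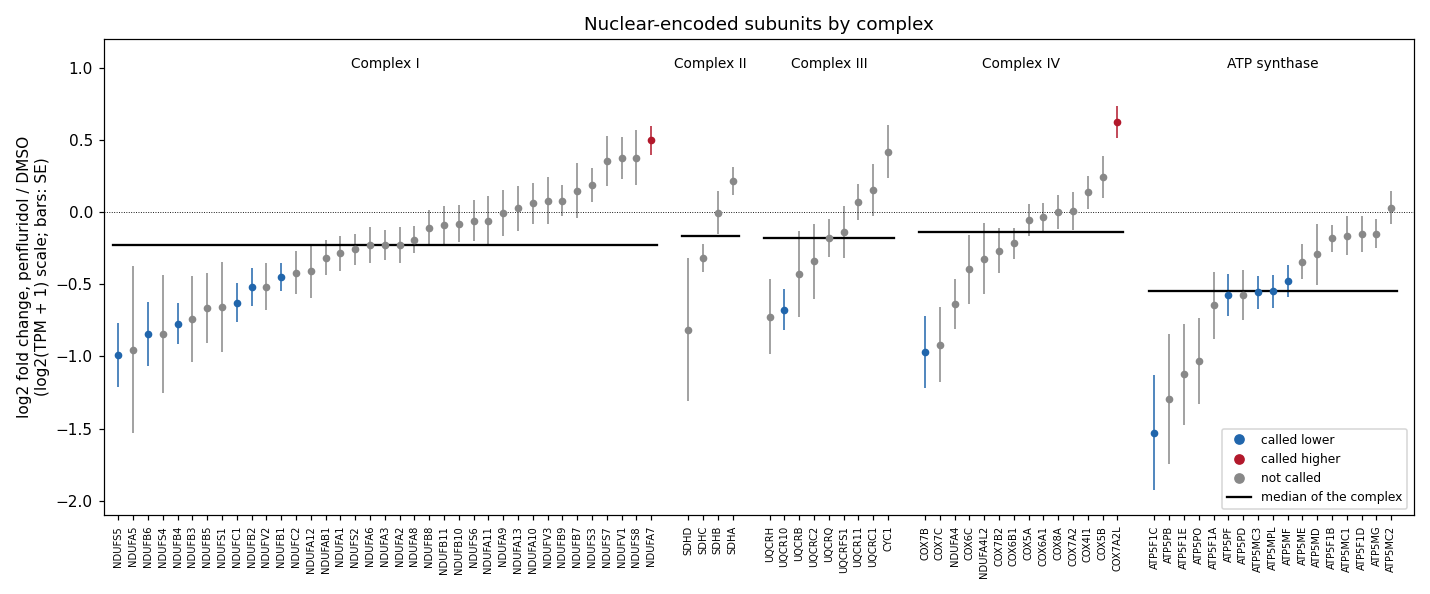
Log2 fold change of each tested subunit gene with penfluridol against DMSO (vertical axis, log2(TPM + 1) scale; bars are the SE), ordered within each complex, with called genes in colour and the median of the complex as a black line. ATP synthase has the lowest median, -0.55, with 16 of its 17 tested genes below 0.

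ATP synthase had the lowest median of the 5 complexes. Of its 17 tested genes 5 fell and none rose, with a median log2 fold change of -0.55 and a range from -1.53 to 0.03. In complex I, 6 of 37 fell and 1 rose (median -0.23). In complex III, 1 of 9 fell (median -0.18), and in complex IV 1 of 14 fell and 1 rose (median -0.14). No gene of complex II passed the test (median of 4 genes -0.16). With GC content and length taken into account the medians were -0.30 for ATP synthase, -0.19 for complex I, -0.06 for complex II, -0.11 for complex III and -0.05 for complex IV, and the median of all tested genes was -0.01. Without DMSO 3 the genes called lower numbered 10 of 17 in ATP synthase and 14 of 37 in complex I. They numbered 1 of 4 in complex II, 3 of 9 in complex III and 4 of 14 in complex IV. That fit called 19.4% of all tested genes lower. In the same order its medians were -0.48, -0.19, -0.21, -0.24 and -0.09, against -0.098 for all tested genes. The differences between complexes were not tested.

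Summed over all 91 genes, the subunit transcripts made up 4.23%, 4.59% and 4.47% of TPM in DMSO 1, 2 and 3, and 3.90%, 3.89% and 3.74% in penfluridol 1, 2 and 3. The mean sum was 13.1% lower with penfluridol, and the groups did not overlap. ATP synthase transcripts summed to 11331, 12490 and 11267 TPM in DMSO and to 8877, 9117 and 9139 TPM with penfluridol, a mean lower by 22.7%. The lowest DMSO library lay well above the highest penfluridol library. Complex I transcripts summed to 15103, 16188 and 16620 TPM in DMSO and to 14826, 14429 and 13305 TPM with penfluridol. Complex III transcripts summed to 3629, 4158 and 3696 TPM in DMSO and to 3338, 3251 and 3221 TPM with penfluridol. In both complexes every penfluridol library was below every DMSO library, although for complex I penfluridol 1 came close to DMSO 1. Complex IV sums overlapped, at 11536 to 12454 TPM in DMSO against 11140 to 11607 TPM with penfluridol, and so did those of complex II, at 407 to 485 TPM and 381 to 469 TPM.

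**Figure D2:**
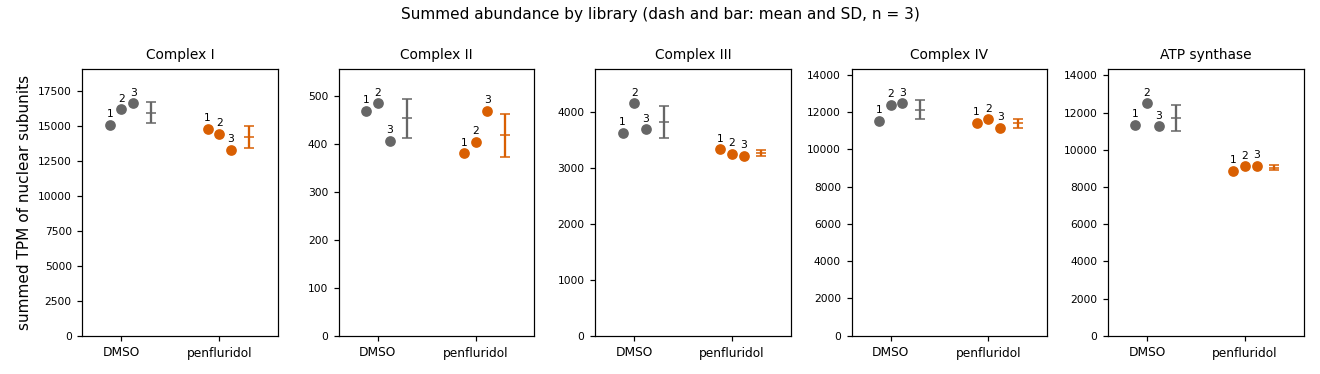
Summed TPM of the nuclear subunits of each complex (vertical axes start at 0) in the 6 numbered libraries; the dash and bar give mean and SD of 3 libraries. The groups are separate for complexes I and III and for ATP synthase, where penfluridol libraries lie at 8877 to 9139 TPM and DMSO libraries at 11267 to 12490 TPM.

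Within ATP synthase, the peripheral stalk had a median log2 fold change of -0.80 over 4 genes and the F1 head and central stalk one of -0.65 over 5 genes. The other membrane subunits had a median of -0.34 over 5 genes and the c ring -0.16 over 3. After GC and length correction the order was another, with -0.43 for the F1 head and central stalk, -0.41 for the peripheral stalk, -0.19 for the c ring and -0.15 for the other membrane subunits, and the differences were not tested. ATP5F1C, which encodes the gamma subunit of the central stalk, was at 284, 392 and 146 TPM in DMSO 1, 2 and 3 and at 68.3, 71.9 and 134 TPM in penfluridol 1, 2 and 3. The groups did not overlap, but DMSO 3 and penfluridol 3 lay close together. Its log2 value fell by 1.53 (SE 0.40, adjusted p = 0.0489, and 0.0065 to 0.171 over the alternatives), and by 0.93 after GC and length correction. ATP5F1B, the catalytic beta subunit, was at 1451, 1370 and 1477 TPM in DMSO against 1214, 1312 and 1261 TPM with penfluridol and did not pass (log2 fold change -0.18, adjusted p = 0.221). Of the 5 head and stalk genes only ATP5F1C was called, and ATP5F1E, the epsilon subunit, which did not pass (-1.13, adjusted p = 0.0755), had overlapping groups.

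ATP5PF, the coupling factor 6 subunit of the peripheral stalk, was at 408, 471 and 329 TPM in DMSO against 264, 254 and 283 TPM with penfluridol. All penfluridol libraries were below the lowest DMSO library, DMSO 3. ATP5PF fell by 0.58 (SE 0.15, adjusted p = 0.0442, and 0.0073 to 0.752 over the alternatives), and by GC and length correction its log2 fold change came to -0.10. The other stalk genes did not pass, with log2 fold changes of -1.30 for ATP5PB, -1.03 for ATP5PO and -0.58 for ATP5PD. ATP5PO, the oligomycin sensitivity-conferring subunit, was at 363, 459.6 and 226 TPM in DMSO against 125, 161 and 219 TPM with penfluridol.

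The c ring is encoded by 3 genes whose mature proteins are the same and whose import presequences differ. ATP5MC3 was at 280.2, 292 and 347 TPM in DMSO against 208, 213 and 199.7 TPM with penfluridol, with no overlap. It fell by 0.56 (SE 0.11, adjusted p = 0.0231, and 0.0156 to 0.78 over the alternatives), and the GC and length correction gave -0.15. ATP5MC2, the most abundant per length, was at 991, 892 and 1122 TPM in DMSO against 1038, 1034 and 987 TPM with penfluridol (log2 fold change 0.03, SE 0.12, adjusted p = 0.868). ATP5MC1 was at 344, 335 and 437 TPM in DMSO against 314, 357 and 319.6 TPM with penfluridol (-0.16, SE 0.13, adjusted p = 0.408). Both had overlapping groups, and the difference between the 3 genes was not tested. Summed, the c ring genes made 1680 ± 202 TPM in DMSO against 1557 ± 49.0 TPM with penfluridol (SD, n = 3).

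Among the other membrane subunits, ATP5MF, the f subunit, was at 1998, 2202 and 2366 TPM in DMSO against 1594, 1647 and 1464 TPM with penfluridol. It was the most abundant ATP synthase transcript per length and did not overlap between groups. ATP5MF fell by 0.48 (SE 0.11, adjusted p = 0.0343, and 0.0239 to 0.221 over the alternatives), and after GC and length correction its value was -0.52. It shares exons with the read-through locus ATP5MF-PTCD1, listed at 0.26 to 4.61 TPM, so the split of reads between them is uncertain. ATP5MPL, a small proteolipid of the complex, was at 421, 514 and 415 TPM in DMSO against 313, 298 and 307 TPM with penfluridol, again without overlap. It fell by 0.55 (SE 0.12, adjusted p = 0.0250, and 0.0128 to 0.709 over the alternatives), and by 0.15 after GC and length correction. ATP5ME, the e subunit, at 1837, 2192 and 1835 TPM in DMSO against 1412, 1569 and 1633 TPM with penfluridol, did not pass (-0.34, SE 0.12, adjusted p = 0.102).

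In complex I accessory subunits surround a catalytic core. Of 30 accessory genes 6 fell and 1 rose (median log2 fold change -0.23), and of 7 core genes none was called (median 0.19), a difference that was not tested. Median-of-ratios scaling called the core gene NDUFV2 lower, and without DMSO 3 the core genes NDUFS1 and NDUFV2 were called lower and NDUFS8 and NDUFV1 higher. The core genes summed to 1578 ± 189 TPM in DMSO against 1832 ± 202 TPM with penfluridol, and the accessory genes to 14393 ± 694 and 12354 ± 588 TPM (SD, n = 3). After GC and length correction the core median was 0.00 and the accessory median -0.22. The core genes lay on both sides of 0, from a log2 fold change of -0.66 for NDUFS1, which carries iron-sulfur clusters, to 0.38 for NDUFS8, another iron-sulfur subunit. NDUFV1, which binds NADH, was at 189, 169 and 232 TPM in DMSO against 281, 252 and 229 TPM with penfluridol, with overlap through DMSO 3 (0.38, SE 0.15, adjusted p = 0.128, and 0.08 after GC and length correction).

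NDUFS5, an accessory subunit on the intermembrane space side, was at 907, 1132 and 656 TPM in DMSO against 369, 442 and 528 TPM with penfluridol. The groups did not overlap, and the penfluridol mean was 50.3% below the DMSO mean. NDUFS5 fell by 0.99 (SE 0.22, adjusted p = 0.0306, and 0.0034 to 0.127 over the alternatives), and by 0.79 after GC and length correction. NDUFB4, of the distal membrane arm, was at 554, 598 and 527 TPM in DMSO against 276, 326 and 387 TPM with penfluridol. Its groups did not overlap, and it had the smallest p among the genes of complex I. NDUFB4 fell by 0.77 (SE 0.14, adjusted p = 0.0171, and 0.0107 to 0.215 over the alternatives), and by 0.40 after GC and length correction.

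NDUFB6 was at 84.7, 99.8 and 64.4 TPM in DMSO against 34.6, 49.2 and 53.4 TPM with penfluridol, and fell by 0.85 (SE 0.22, adjusted p = 0.0473, and 0.0123 to 0.432 over the alternatives). NDUFC1 was at 272, 278 and 245 TPM in DMSO against 153, 160.4 and 204 TPM with penfluridol, and fell by 0.63 (SE 0.14, adjusted p = 0.0278, and 0.0107 to 0.152 over the alternatives). In neither gene did the groups overlap, and both are accessory subunits of the membrane arm. NDUFB2 was at 756, 895 and 979 TPM in DMSO against 632, 643 and 551 TPM with penfluridol, and fell by 0.52 (SE 0.13, adjusted p = 0.0433, and 0.0302 to 0.36 over the alternatives). NDUFB1 was at 706, 814 and 742 TPM in DMSO against 553, 563 and 536 TPM with penfluridol, and fell by 0.45 (SE 0.099, adjusted p = 0.0289, and 0.0192 to 0.67 over the alternatives). These 2 membrane arm genes also had no overlap, and in NDUFB2 it was DMSO 3 that was highest. After GC and length correction the values were -0.23 for NDUFB6, -0.55 for NDUFC1, -0.42 for NDUFB2 and -0.16 for NDUFB1.

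NDUFA7, an accessory subunit of the matrix arm, was at 175, 158 and 174 TPM in DMSO against 234, 255 and 227 TPM with penfluridol. Every penfluridol library was above every DMSO library. NDUFA7 rose by 0.50 (SE 0.10, adjusted p = 0.0234, and 0.0155 to 0.225 over the alternatives), and its value after GC and length correction was 0.33. The most abundant complex I transcripts per length, NDUFA13 (GRIM-19) and NDUFA11, were not called. NDUFA13 was at 1392, 1433 and 1762 TPM in DMSO against 1776, 1602 and 1301 TPM with penfluridol (0.02, SE 0.16, adjusted p = 0.925). NDUFA11 was at 1066, 1061 and 1363 TPM in DMSO against 1313, 1152 and 902 TPM with penfluridol (-0.06, SE 0.17, adjusted p = 0.832). In both genes the spread within each group exceeded the difference between the groups.

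**Figure D3:**
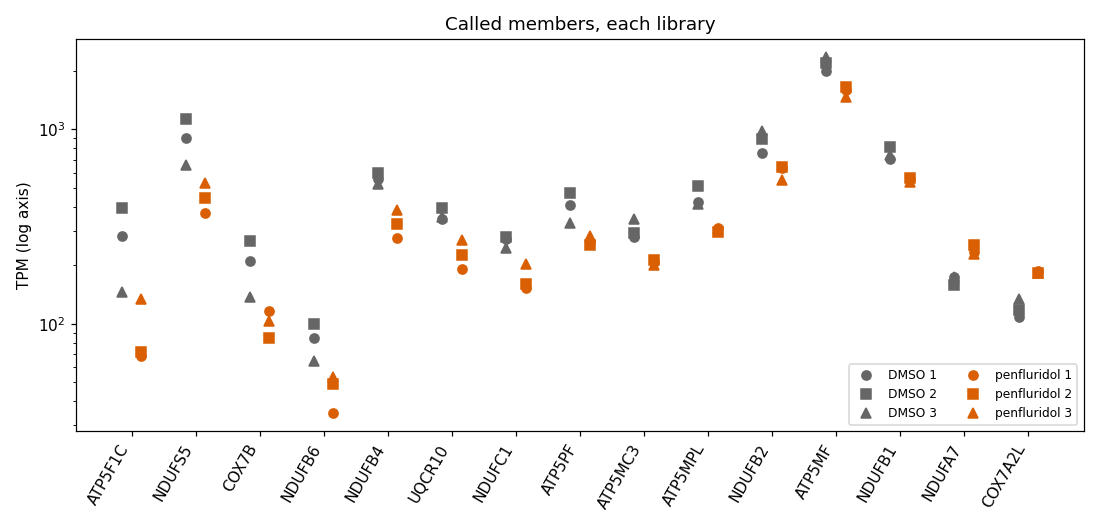
TPM of the 15 called subunit genes in each of the 6 libraries (vertical log axis; grey DMSO, orange penfluridol, marker shape the library number), from the largest fall to the largest rise. ATP5F1C lies at 146 to 392 TPM in DMSO against 68.3 to 134 TPM with penfluridol, and COX7A2L at 108 to 134 TPM and 182 to 188 TPM.

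No gene of complex II, succinate dehydrogenase, was called. SDHA, the flavoprotein, was at 79.2, 73.7 and 75.8 TPM in DMSO against 86.4, 88.7 and 90.7 TPM with penfluridol. SDHC, a membrane anchor that binds ubiquinone and heme, was at 150.2, 144 and 152 TPM in DMSO against 114, 118 and 125 TPM with penfluridol. The groups did not overlap in either gene, SDHA being higher and SDHC lower with penfluridol. The log2 fold change was 0.21 for SDHA (SE 0.099, adjusted p = 0.176) and -0.32 for SDHC (SE 0.097, adjusted p = 0.0721). SDHA has 3 pseudogenes in the table whose TPM came to 9.15% of its own, so some reads of SDHA may be split. SDHB, the iron-sulfur subunit, was at 191 ± 24.7 TPM in DMSO against 191 ± 28.1 TPM with penfluridol (SD, n = 3, adjusted p = 0.988), and SDHD, the other anchor, at 37.8 ± 20.6 and 20.0 ± 9.9 TPM (-0.82, SE 0.49, adjusted p = 0.278).

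In complex III, UQCR10, a small subunit next to cytochrome c1, was at 346, 395 and 353 TPM in DMSO against 192, 227 and 269 TPM with penfluridol, with no overlap. It fell by 0.68 (SE 0.14, adjusted p = 0.0261, and 0.0107 to 0.123 over the alternatives), and by 0.60 after GC and length correction. UQCRH, the hinge protein, was at 1089.9, 1459 and 875 TPM in DMSO against 491, 706 and 887 TPM with penfluridol and did not pass (-0.73, SE 0.26, adjusted p = 0.107). DMSO 3 lay just below penfluridol 3. The paralog UQCRHL was listed at 0.02 to 0.22 TPM. UQCRQ was at 592, 703 and 765 TPM in DMSO against 667, 591 and 559 TPM with penfluridol, with overlap (-0.18, SE 0.13, adjusted p = 0.369). The 5 small subunits had a median of -0.43 and the 4 core and catalytic ones 0.01, which after GC and length correction were -0.21 and 0.13. CYC1, cytochrome c1, was at 436 ± 71.8 TPM in DMSO against 586 ± 116 TPM with penfluridol (SD, n = 3) and did not pass (0.42, SE 0.18, adjusted p = 0.162). UQCRFS1, the Rieske protein, did not pass either (-0.14, adjusted p = 0.604), and its pseudogenes came to 27.1% of its TPM.

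In complex IV, COX7A2L, known as a factor of respiratory supercomplexes that binds complex III, was at 108, 118 and 134 TPM in DMSO against 188, 182 and 183 TPM with penfluridol. All penfluridol libraries were above DMSO 3, the highest of its group. COX7A2L rose by 0.62 (SE 0.11, adjusted p = 0.0162, and 0.0063 to 0.125 over the alternatives), the smallest adjusted p of all subunit genes, and by 1.17 after GC and length correction. COX7B was at 211, 268 and 137 TPM in DMSO against 116, 84.8 and 103 TPM with penfluridol, without overlap. This small membrane subunit fell by 0.97 (SE 0.25, adjusted p = 0.0471, and 0.0051 to 0.228 over the alternatives), and the GC and length correction gave -0.36. NDUFA4, at 176, 231 and 161 TPM in DMSO against 107, 113 and 141 TPM with penfluridol, missed the threshold (-0.64, SE 0.17, adjusted p = 0.0531). Its log2 fold change was 0.09 after GC and length correction.

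COX6A1 had the most abundant transcript per length of all subunit genes, and neither it nor the other abundant transcripts of complex IV were called. COX6A1 was at 3304, 3516 and 3519.8 TPM in DMSO against 3293, 3495 and 3287 TPM with penfluridol (log2 fold change -0.04, SE 0.10, adjusted p = 0.813). COX8A was at 1484, 1429 and 1728 TPM in DMSO against 1658, 1563 and 1415 TPM with penfluridol (0.00, SE 0.12, adjusted p = 0.999). COX4I1 was at 1263, 1246 and 1499 TPM in DMSO against 1489, 1534 and 1373 TPM with penfluridol (0.14, SE 0.12, adjusted p = 0.424). For these 3 genes the groups overlapped. COX6B1 was lower in each penfluridol library, at 1046 ± 37.1 TPM against 1218 ± 113 TPM (SD, n = 3), and did not pass (-0.22, SE 0.11, adjusted p = 0.203). COX7C was at 1048, 1338 and 837 TPM in DMSO against 411, 544 and 773 TPM with penfluridol, without overlap. It missed the threshold (-0.92, SE 0.26, adjusted p = 0.0612), and its value was -0.29 after GC and length correction. COX7C was called lower with the 5 TPM filter, with median-of-ratios scaling, without DMSO 3 and without penfluridol 3. COX7A2 was at 790 ± 113 TPM in DMSO against 791 ± 50.1 TPM with penfluridol (SD, n = 3, adjusted p = 0.968), while its paralog COX7A2L was called higher.

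Isoforms known from particular tissues were at or near 0. The muscle and heart isoforms COX6A2 and COX7A1 were listed at 0 in all 6 libraries. COX4I2, the isoform known from lung, was listed at 0.18 TPM in DMSO 3 and at 0 elsewhere, the testis isoform COX6B2 at 0.08 to 0.22 TPM, and COX8C at 0.14 TPM in penfluridol 1 and at 0 elsewhere. COX7B2, a testis isoform, was an exception at 74.4 to 104 TPM in DMSO against 66.1 to 78.7 TPM with penfluridol (-0.27, SE 0.15, adjusted p = 0.255). NDUFA4L2, known as a hypoxia-induced paralog of NDUFA4, was at 36.9, 31.8 and 27.5 TPM in DMSO against 29.1, 32.1 and 17.1 TPM with penfluridol (-0.32, SE 0.25, adjusted p = 0.379). Of the 3 hyphenated loci none was called. NDUFA6-DT, a divergent transcript whose first bases overlap NDUFA6 on the other strand, was at 2.82, 3.61 and 3.26 TPM in DMSO against 5.08, 4.48 and 5.54 TPM with penfluridol (0.51, SE 0.19, adjusted p = 0.118). Whether counting used strand is not given in the sources, so reads in the overlap cannot be told apart.

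Transcript GC content moved with the fold changes. Across the 84 subunit genes Pearson's r between GC content and log2 fold change was 0.61 and Spearman's rho 0.65, and across 12112 genes they were 0.52 and 0.60. Genes share the same 6 libraries, so these values describe the data only. When the genes were divided at 45.7% and 53.8% GC, the 28 subunit genes of low GC content had a median log2 fold change of -0.57, with 6 called lower and 1 higher. The 28 of middle GC content had a median of -0.30 with 7 called lower, and the 28 of high GC content a median of 0.01 with none lower and 1 higher. Over all genes the medians of the same classes were -0.62, -0.11 and 0.28. Of all genes in these classes 4.54%, 4.07% and 2.32% were called lower, and 0.705%, 4.23% and 19.4% higher. DMSO 3 moved along GC content too: relative to the mean of DMSO 1 and 2 its subunit genes had medians of -0.54, -0.02 and 0.30 in the low, middle and high classes (log2). DMSO 3 was the lowest DMSO library for 38 of the 84 genes and the highest for 36. ATP synthase genes, at a median of 45.6% GC, lay below complex I at 49.9% and all tested genes at 51.8%. The part of GC content in the lower values was not tested beyond the correction. ATP5F1C, NDUFC1, NDUFS5 and UQCR10 were called lower with and without that correction, and ATP5F1D, ATP5PO and NDUFA3 were called lower with it alone.

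**Figure D4:**
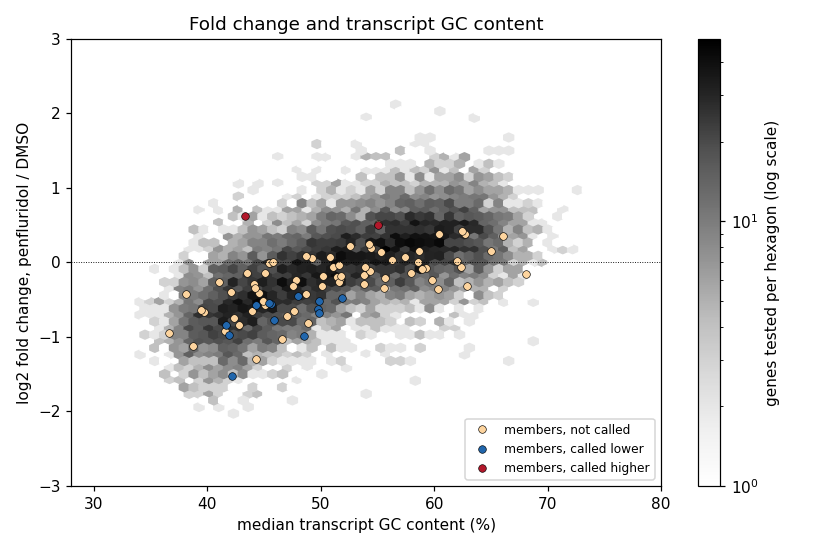
Log2 fold change with penfluridol against DMSO (vertical axis) by median transcript GC content (horizontal axis, percent) for the tested genes (grey hexagons, darker for more genes) and the 84 tested subunit genes (points). Fold changes rise with GC content in both, but subunit genes of middle and high GC content have lower medians (-0.30 and 0.01) than all genes (-0.11 and 0.28). COX7A2L, at 43.3% GC, is the single one above 0 among the 28 subunit genes of low GC content.

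Other genes of the pathway were examined by lists. Of 56 tested assembly factors 2 rose and 1 fell, with a median log2 fold change of -0.19, where 9.75% and 3.48% of all tested genes were called higher and lower. After GC and length correction 5 rose and 3 fell, with a median of -0.04, where 10.2% and 8.97% of all tested genes were called higher and lower. None of the 16 complex I factors (median -0.27), 6 complex III factors (0.03) or 4 ATP synthase factors (-0.36) was called, and their corrected medians were 0.00, -0.08 and -0.14. SDHAF1, which helps insert iron-sulfur clusters into succinate dehydrogenase, was at 31.8, 28.02 and 38.5 TPM in DMSO against 78.9, 71.1 and 59.3 TPM with penfluridol. It rose by 1.07 (SE 0.17, adjusted p = 0.00998, and 0.0046 to 0.0678 with 1 library left out), and the groups did not overlap. COX19, a copper-handling factor of complex IV, rose from 9.61 ± 1.32 to 22.01 ± 3.08 TPM (1.12, SE 0.17, adjusted p = 0.00963, and 0.0085 to 0.0554 with 1 library left out). COX20, a chaperone of the subunit COX2, fell from 7.83 ± 3.43 to 1.75 ± 0.0231 TPM (SD, n = 3; -1.60, SE 0.32, adjusted p = 0.0226, and 0.0034 to 0.103 with 1 library left out). Among the analyses with 1 library left out, the call of COX20 held without DMSO 3 and in no other. All 3 were also called after GC and length correction, with log2 fold changes of 0.75 for SDHAF1, 1.2 for COX19 and -0.93 for COX20.

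Among 15 genes of electron carriers and coenzyme Q synthesis COQ9, a lipid-binding protein of that synthesis, rose from 62.5 ± 5.03 to 94.8 ± 3.20 TPM (0.60, SE 0.11, adjusted p = 0.0172, and 0.0095 to 0.103 with 1 library left out), and none fell. After GC and length correction its value was 0.42, and limma then also called PDSS2 higher (0.89, adjusted p = 0.042) and COQ8B lower (-0.60, adjusted p = 0.0106). That correction called 10.2% of all tested genes higher and 8.97% lower. Of 13 mitochondrially encoded subunits MT-ND3, of complex I, was at 4191, 4309 and 3845 TPM in DMSO against 2355, 2336 and 3117 TPM with penfluridol. It fell by 0.67 (SE 0.14, adjusted p = 0.0269, and 0.0149 to 0.14 with 1 library left out), and its log2 fold change was 0.23 after GC and length correction. The median of the 13 was -0.08, and 0.42 after that correction, so its sign depended on it. With the correction MT-ND1, MT-ND5 and MT-ND6, all of complex I, were called higher and none lower. Their spread within groups was wide, as in MT-CO1, at 374 to 950 TPM in DMSO against 355 to 863 TPM with penfluridol. Of 10 tested regulators ESRRA, the estrogen-related receptor alpha, rose from 54.9 ± 6.39 to 106 ± 16.8 TPM (0.93, SE 0.15, adjusted p = 0.0121, and 0.0062 to 0.0782 with 1 library left out), and none fell. Its value was 0.58 after GC and length correction, and the median of the regulators went from -0.43 to 0.02. NRF1 was at 7.51 ± 0.985 TPM in DMSO against 8.25 ± 0.389 TPM with penfluridol (adjusted p = 0.623), and TFAM, the mitochondrial transcription factor, at 4.66 ± 2.80 and 1.34 ± 0.829 TPM (-1.17, SE 0.48, adjusted p = 0.138; SD, n = 3). Of 14 tricarboxylic acid cycle enzymes none was called (median 0.07). Before GC and length correction 9.75% of all tested genes were called higher and 3.48% lower. The shares called higher, 6.67% of the carrier and coenzyme Q genes and 10% of the regulators, were near or below that of all genes. Of the mitochondrially encoded subunits 7.69% were called lower, which is 1 gene.

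**Figure D5:**
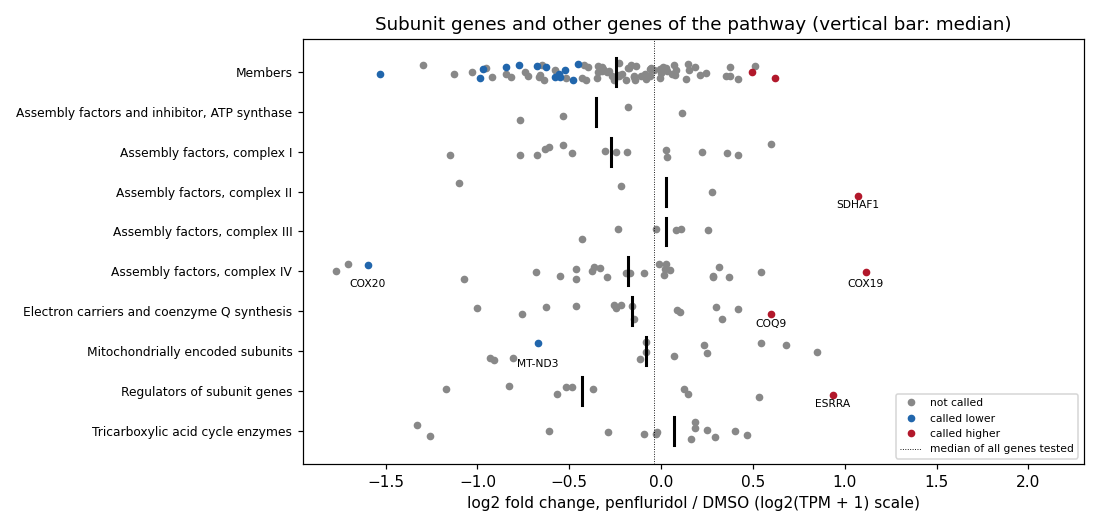
Log2 fold change with penfluridol against DMSO (horizontal axis) of the 84 tested subunit genes (top row, Members) and of the genes in the other lists of the pathway, with each list's median as a vertical bar and called genes coloured; called genes outside the subunit set are named. The subunit genes have 13 calls to the left and 2 to the right, and the other lists together have 2 to the left and 4 to the right. Of all tested genes 3.48% were called lower and 9.75% higher. The difference between the lists was not tested.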

How the data were processed

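Messenger RNA libraries of Ishikawa cells, 3 with DMSO and 3 with penfluridol, were prepared with the SMARTer chemistry according to the labels. Reads were handled with fastp and RSEM on GRCh38.p13, per the submitters' processing notes; their versions, aligner and annotation are not given in the sources. The authors deposited 1 table of TPM for 60670 genes, without counts; the unit was read from the column totals. Columns of other samples numbered 0, and 1 line of the table is empty and was not used here. TPM divides by length and library total.

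Genes averaging 1 TPM or more (12201) were fitted with limma 3.58.1 (R 4.3.3, trended variances) on log2(TPM + 1), with an intercept and treatment. P-values are two-sided with Benjamini-Hochberg adjustment over all genes tested. The script was tested on simulated data. Fold changes on this scale understate changes of low genes. GC content and length are medians over GENCODE release 29 transcripts (12112 of the tested genes). Alternatives were a pseudocount of 0.1, no filter, 5 TPM or more in 3 or more libraries, median-of-ratios scaling, removal of each library's spline trend (4 df) with GC content and length, the replicate number as a block, both together, each library left out, and NDUFA4 with NDUFA4L2 counted with complex I.

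The members and lists were chosen with earlier results of these data known. Named by rule were all called genes, in each complex the 2 with the smallest p and the 2 with the highest TPM, the paralog groups of the c ring, COX4I, COX6A, COX6B, COX7A, NDUFA4 and UQCRH, and the called genes of each list. Other genes were chosen after their values were seen. Pseudogene rows were matched by symbol.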

Additional observations from a re-analysis of the deposited data

How the results depend on the processing

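The members called lower, 13 as reported, numbered 2 without a filter on low TPM (0.729% of all tested genes), 7 after GC and length correction and 0 to 32 with 1 library left out (32 without DMSO 3). The members called higher, 2 as reported, numbered 0 with median-of-ratios scaling, 1 after GC and length correction and 0 to 6 with 1 library left out. A pseudocount of 0.1 and a filter of 5 TPM or more in 3 or more libraries kept both counts within 1.5 times (13 and 16 lower, 2 and 2 higher). Median-of-ratios scaling called 15 lower, of which 8 were among the 13, and took the share of higher calls over all genes from 73.7% to 58.1%; GC and length correction took it to 53.1%. With the replicate number as a block no member was called, lower or higher (0 and 0), with 23 at an unadjusted p under 0.05 and a smallest adjusted p of 0.112, where 0.0984% and 0.508% of all tested genes were called lower and higher. The block with GC and length correction called 1 lower, NDUFS5, and 0 higher (2.03% and 3.12% of all tested genes). Deviations of libraries from their group mean correlated at -0.0081, -0.0061 and -0.35 for the same number and at -0.33 to 0.32 for different numbers. Deviations within a group of 3 sum to 0, so these values cannot tell whether the numbers pair the libraries.

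The median log2 fold changes moved with GC and length correction, with and without the replicate block, to -0.19 in complex I, -0.11 in complex III, -0.053 in complex IV and -0.30 in ATP synthase. That of complex IV was -0.056 without a filter and -0.047 with NDUFA4 and NDUFA4L2 counted with complex I. With 1 library left out the medians ranged from -0.24 to -0.19 in complex I, -0.24 to -0.10 in complex II, -0.29 to -0.16 in complex III, -0.16 to -0.09 in complex IV and -0.56 to -0.44 in ATP synthase. GC and length correction, with and without the replicate block, turned the direction of 6 named genes that were not called: ATP5MC2 to -0.19, COX4I1 to -0.055, COX8A to -0.23, NDUFA13 to -0.30, NDUFA4 to 0.088 and SDHB to 0.39; SDHB was at 0.0034 with median-of-ratios scaling. With 1 library left out the log2 fold change ranged from -0.049 to 0.12 in ATP5MC2, -0.11 to 0.10 in COX7A2, -0.055 to 0.083 in COX8A, -0.18 to 0.09 in NDUFA11, -0.075 to 0.15 in NDUFA13 and -0.12 to 0.083 in SDHB. The cause was not tested for any of these.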
